A study of Glycine max with 12 samples.

Results

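A stretch of soybean chromosome 16, running in gene number from Glyma.16G159300 to Glyma.16G214500, is described here because genes that differed between the plant materials OX3 and W had been seen along it. Members were the genes of that interval with a mean of at least 0.5 CPM over the 12 libraries. CPM scales the reads of a gene to a fixed total of reads per library, so that libraries of unequal depth can be compared. Of 387 identifiers in the interval, 225 were members, 44 had no read in any library, and 162 in all lay below the minimum. The whole table held 43517 identifiers, of which 31017 reached the same minimum. The stretch was selected on the measured differences in expression between OX3 and W in these libraries. Differences between OX3 and W are therefore a description. No p-value is given for them, and counts of members past a threshold in that contrast were shaped by the choice and are not evidence about the stretch, while the response to manganese (Mn) took no part in the choice and was tested.

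Soybean identifiers name the chromosome ahead of the letter G and then number the genes in their order along it. Genes that lie close together on a chromosome tend to be inherited together. Neighbouring genes are often copies of each other that arose by tandem duplication, and reads of similar copies can be hard to assign. Mn is a micronutrient of plants, a cofactor of enzymes that include a superoxide dismutase, and is toxic when roots take up too much of it. None of the identifiers could be paired with a gene name in the reference table, so no member is given a function and the labelled tissue could not be checked against its markers.

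RNA had been sequenced from roots of materials labelled W and OX3 that received MnSO4 at 5 µM, the control, or at 50 µM. Each of the 4 groups held 3 libraries, with replicates 2, 3 and 4 in every group except W at 50 µM, which had replicates 1, 2 and 3. The authors' tables head these materials WT and OX. What distinguishes them, whether OX3 is a single line, and the age and growth of the plants do not appear in the labels, nor does whether libraries of a group came from separate plants. The p-values below thus rest on variation among the libraries at hand, part of which may be technical. Fewer cells of a type and less RNA per cell cannot be told apart in whole roots. Libraries held between 15175866 and 19408318 counts.

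W control replicate 2 stood apart from the other W libraries. Outside the stretch, 907 genes separated the other 11 libraries by material, and on 11.4% of them this library lay nearer the W mean than the OX3 mean. OX3 control replicate 3, placed in the same way, lay nearer its own material on 33.4% of 377 genes, and the remaining libraries on 52.9% to 88.4%. Within the stretch, 40 members separated the other 11 libraries, and it lay nearer the W mean in 24 of these. For each of the other 11 libraries, placed in the same way on 28 to 33 members, between 26 and 28 members lay nearer the mean of its own material.

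Levels from here on are CPM relative to the TMM-normalised library total, listed by replicate number within a group, and differences are log2 fold changes of OX3 minus W averaged over both MnSO4 concentrations, unless said otherwise. In 28 of the 225 members no OX3 library fell within the range of the 6 W libraries and all 6 were to the same side of it, 15 of them higher and 13 lower in OX3. Among all 31841 tested genes 0.502% separated in this way, 0.33% higher and 0.173% lower. Of the 100 tested genes just before the stretch and the 48 after it, the last on the chromosome, 0 separated. For description only, edgeR's quasi-likelihood fit put 16 members past 0.05 in adjusted p, 6 higher and 10 lower in OX3. Of all tested genes 0.148% were past it, 0.0879% higher and 0.0597% lower. Since the stretch was selected on this contrast in the same libraries, nothing is read from either count against its background, or from the 0 beside the stretch. The 16 became 29 without W control replicate 2, where 1.79% of all tested genes were past the threshold. The count was 10 without W control replicate 4 or without W replicate 1 or 2 at 50 µM. The shares of all tested genes were then 0.0612%, 0.0927% and 0.0674%, in that order. A replicate block left 5, where 0.0345% of all tested genes were past the threshold. With the block set within each concentration there were 12, of which 9 were among the 16, beside 0.386% of all tested genes. Without W control replicate 2 the members that separated numbered 40, which took in all of the 28, and leaving out any one of the other libraries gave between 28 and 33.

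**Figure D1:**
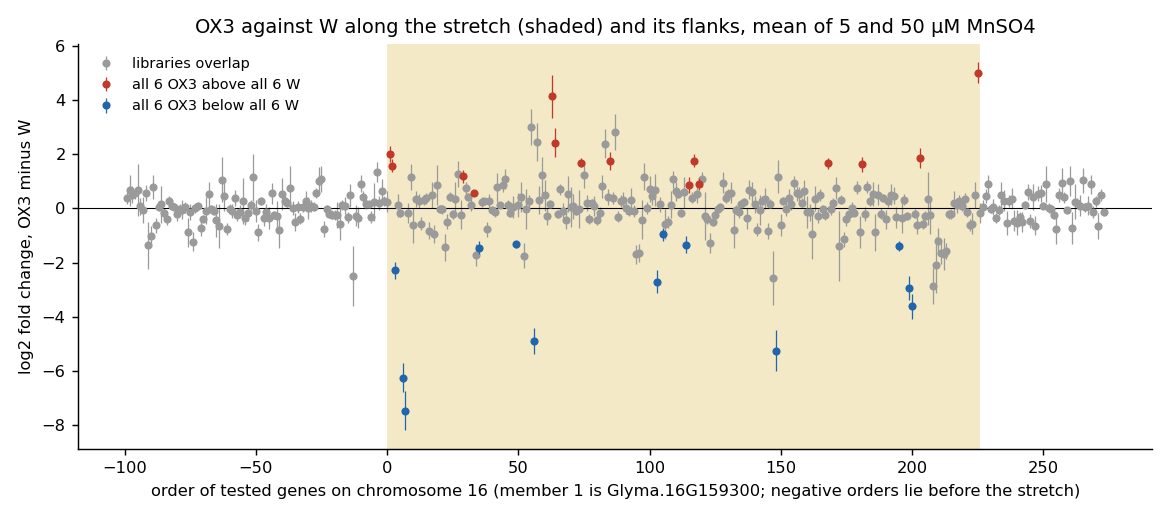
The log2 fold change of OX3 minus W (y axis, averaged over 5 and 50 µM MnSO4, bars are standard errors) is plotted for tested genes in their order on chromosome 16 (x axis), with the 225 members in the shaded part. The 15 members with every OX3 library above every W library are red, the 13 with every one below are blue, and the flanks hold none of either.

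The median absolute log2 fold change of the members was 0.43, against 0.25 over all tested genes. It was 0.28 in the genes just before the stretch and 0.39 in those just after. The members did not lean one way, as 123 had a positive and 102 a negative value, with a median of 0.12. The separated members were spread over the whole length. In 9 successive blocks of 25 members there were 5, 4, 4, 1, 6, 1, 1, 4 and 2 of them, so that no block was without one. The widest gap between neighbouring separated members, from Glyma.16G196800 to Glyma.16G202200, held 28 members that overlapped. Higher and lower genes lay interspersed, and of 6 pairs of separated members that were next to each other, 4 shared a direction.

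In 6 members one material stayed below 0.5 CPM in every library while the other was at or above it in all of its libraries. Over all tested genes 0.0471% met this description. Of these on/off genes, 4 were below the limit in OX3 and 2 in W. Which members met it depended on the limit. At limits of 0.2 and 1 CPM, 2 and 6 members met it, of which 1 and 4 were among these 6. At 0.5 CPM the same 6 met it without W control replicate 2.

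Glyma.16G161000 was the first of them along the chromosome. In W it was at 11.4, 10.2 and 9.79 CPM at 5 µM and at 6.15, 4.13 and 8.13 CPM at 50 µM. In OX3 its levels were 0.124, 0 and 0.357 CPM at 5 µM and 0, 0.062 and 0.112 CPM at 50 µM. Every W library thus lay far above every OX3 library. Its summed reads were 548 in W and 10 in OX3 at 5 µM, and the normalised ratio was 68.4 with a 95% counting interval of 36.9 to 143. At 50 µM there were 279 reads in W and 3 in OX3. Intervals here and below cover counting error alone.

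Glyma.16G161100 is the next member in the numbering. Its W libraries were at 7.48, 5.27 and 5.09 CPM at 5 µM and at 8.06, 2.68 and 2.24 CPM at 50 µM. The OX3 libraries were at 0.166, 0 and 0.153 CPM at 5 µM, and all 3 had 0 reads at 50 µM. With a floor of 3 reads over the group it was at least 75.6-fold lower in OX3 at 50 µM. The genes Glyma.16G161000 and Glyma.16G161100 were therefore near 0 together in every OX3 library and present together in every W library.

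Glyma.16G174900 is a short gene of 545 bp. It stood at 3.18, 2.85 and 6.79 CPM in W at 5 µM and at 6.79, 5.37 and 3.22 CPM in W at 50 µM. The OX3 libraries had 0.124, 0.0482 and 0.153 CPM at 5 µM and 0.457, 0.124 and 0.0558 CPM at 50 µM. The groups did not overlap, and the log2 fold change was -4.90 (SE 0.49).

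Glyma.16G193800, of 898 bp, had a smaller contrast. W held 0.627, 1.35 and 2.22 CPM at 5 µM and 1.68, 3.26 and 1.40 CPM at 50 µM, while OX3 lay between 0.145 and 0.391 CPM in all 6 libraries. Its highest OX3 library and its lowest W library differed by less than the spread within W. The log2 fold change was -2.70 (SE 0.42).

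Glyma.16G214500, the last member, had the opposite pattern. OX3 was at 6.33, 4.0 and 3.82 CPM at 5 µM and at 6.26, 17.4 and 8.32 CPM at 50 µM. W was at 0.269, 0.356 and 0.131 CPM at 5 µM and at 0.116, 0.218 and 0.21 CPM at 50 µM. All OX3 libraries lay above all W libraries, with 311 reads against 13 at 5 µM and 525 against 8 at 50 µM. The normalised ratio of OX3 to W was 19.2 (95% counting interval 11 to 36.4) at 5 µM and 60.2 (30.3 to 140) at 50 µM.

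Glyma.16G176900 was also near 0 in W, at 0, 0.285 and 0 CPM at 5 µM and 0.058, 0 and 0.0701 CPM at 50 µM. OX3 stood at 0.621, 1.16 and 0.968 CPM at 5 µM and at 0.587, 3.04 and 1.00 CPM at 50 µM. It rested on few reads, since OX3 had 58 and W 4 at 5 µM. The log2 fold change was 4.14 (SE 0.81), and 5.99 without W control replicate 3, which held all 4 of those W reads.

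**Figure D2:**
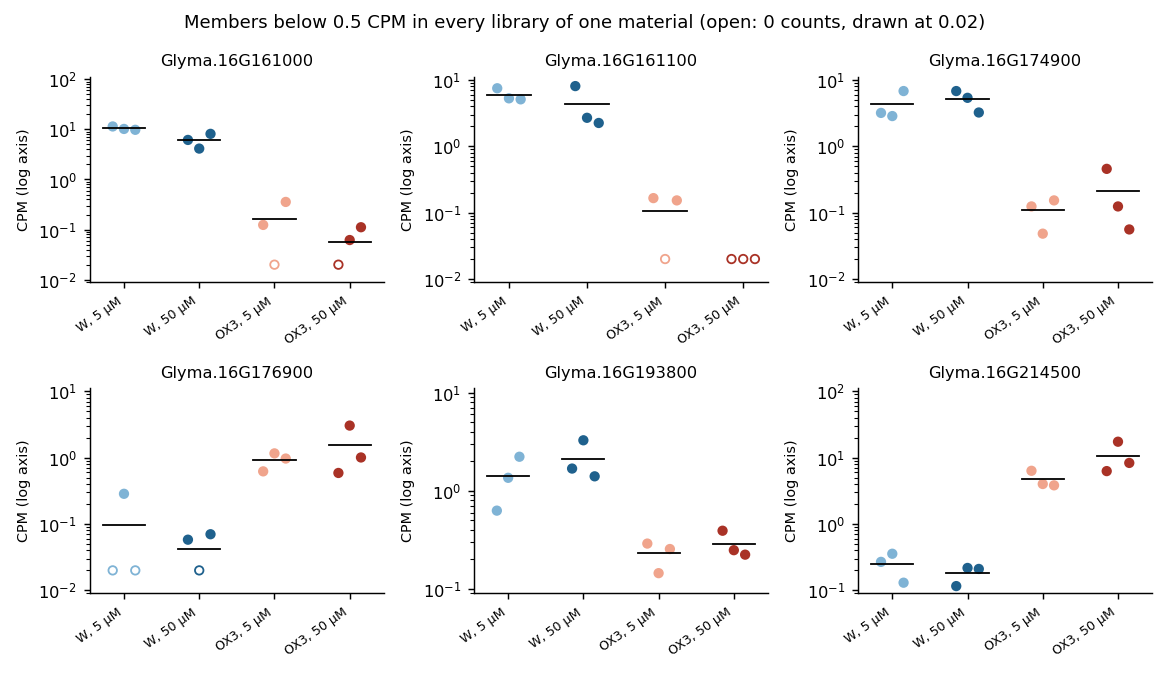
CPM of the 6 on/off members (y axis, log scale) in every library of the 4 groups (x axis), with the group mean as a line and libraries with 0 reads as open circles. Glyma.16G161000, Glyma.16G161100, Glyma.16G174900 and Glyma.16G193800 stay below 0.5 CPM in all OX3 libraries, and Glyma.16G176900 and Glyma.16G214500 stay below it in all W libraries.

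Other members came close to this pattern. Glyma.16G202200 had 1 read in OX3 and 69 in W at 5 µM, and 2 against 61 at 50 µM. Its W libraries lay between 0.285 and 2.19 CPM, and 1 of them under the on/off limit kept it out. The normalised ratio of W to OX3 was 86.1 at 5 µM with a 95% counting interval from 15 to 3450, so its size is poorly known. Glyma.16G210800 was at 0.166, 0.193 and 0 CPM in the OX3 controls and at 0.326, 0.93 and 0.67 CPM in OX3 at 50 µM, against 2.21 to 6.09 CPM in W. Glyma.16G177000, the neighbour of Glyma.16G176900, lay between 0.058 and 0.998 CPM in W and between 1.63 and 4.69 CPM in OX3. That pair was higher in OX3 side by side. Below the minimum for members, and named after their values were seen, Glyma.16G170900 had 56 reads over the OX3 libraries and 0 in W, and Glyma.16G213700 had 74 in W and 4 in OX3.

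At the left end of the stretch the first 3 members all separated. Glyma.16G159300 was at 11.4 to 19.5 CPM in the 6 OX3 libraries and at 2.00 to 6.45 CPM in the 6 W libraries, a log2 fold change of 2.00 (SE 0.30). Glyma.16G159500 lay at 6.42 to 11.4 CPM in OX3 and 1.28 to 3.39 CPM in W, so it was higher in OX3 as well. The next member, Glyma.16G159700, went the other way, at 0.391 to 1.43 CPM in OX3 and 2.33 to 8.64 CPM in W. Its log2 fold change was -1.63 at 5 µM and -2.94 at 50 µM.

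Among the other members higher in OX3, Glyma.16G166500 had OX3 libraries at 3.98 to 6.13 CPM and W libraries at 1.01 to 3.71 CPM. Glyma.16G167200 was an abundant member, with 69.1, 76.2 and 69.9 CPM in the OX3 controls against 46.2, 40.2 and 35.1 CPM in the W controls. At 50 µM the gap of Glyma.16G167200 was narrower, with 54.1, 51.9 and 56.7 CPM in OX3 and 44.8, 43.4 and 44.2 CPM in W. The materials still did not overlap at that concentration.

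Glyma.16G178900 stood 3.21-fold higher in OX3 by the fitted log2 fold change, with 29, 30.5 and 22 CPM at 5 µM and 30.9, 27.6 and 33.8 CPM at 50 µM. Its W libraries held 8.24, 10.3 and 8.22 CPM at 5 µM and 7.95, 7.04 and 12.3 CPM at 50 µM. This difference was alike at both concentrations, at log2 fold changes of 1.61 and 1.76. Glyma.16G180800 lay at 52.2 to 89.7 CPM in OX3 and 6.06 to 31.1 CPM in W, where W control replicate 3 was the lowest. Glyma.16G196400 lay at 22.2 to 51 CPM in OX3 and 6.60 to 18.9 CPM in W.

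Smaller or fainter genes were higher in OX3 in the right part. Glyma.16G205600 was among the steadiest, at 3.81 ± 0.23 and 4.15 ± 0.38 CPM in OX3 (SD, n = 3) at 5 and 50 µM, against 1.23 ± 0.3 and 1.26 ± 0.022 CPM in W. The spread within each group was a small part of that gap. Glyma.16G207600 lay at 2.73 to 4.18 CPM in OX3 and 0.57 to 1.96 CPM in W. Glyma.16G211200 lay at 1.48 to 3.91 CPM in OX3 and 0.21 to 1.07 CPM in W. In Glyma.16G196800 and Glyma.16G195900 the materials barely parted, with the highest W library at 5.74 and 1.05 CPM and the lowest OX3 library at 5.84 and 1.12 CPM.

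Among members lower in OX3, Glyma.16G171900 was the most abundant of the separated genes. Its W libraries were at 142, 134 and 131 CPM at 5 µM and 113, 116 and 99.3 CPM at 50 µM. OX3 had 38.7, 49.7 and 40.5 CPM at 5 µM and 59.6, 47.6 and 57.2 CPM at 50 µM. W thus lay above OX3 in every library, and the log2 fold change was -1.66 at 5 µM and -1.0 at 50 µM. Glyma.16G167600 lay at 7.44 to 13.7 CPM in OX3 and 18.5 to 42.7 CPM in W. Glyma.16G194100 was at 2.94 to 8.15 CPM in OX3 and 8.70 to 12.3 CPM in W, a narrow parting. Glyma.16G195700, a faint gene, lay at 0.408 to 1.04 CPM in OX3 and 1.5 to 3.19 CPM in W.

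Near the right end, 3 long genes were lower in OX3 within a few identifiers of each other. Glyma.16G210200, of 2563 bp, was held between 4.03 and 4.76 CPM in OX3 while W ranged from 6.0 to 18.3 CPM. Glyma.16G210600, of 4578 bp, stood at 18.6, 5.84 and 7.38 CPM in the W controls and 14.6, 8.63 and 14.7 CPM in W at 50 µM. OX3 had 2.19, 1.11 and 0.815 CPM of it at 5 µM and 0.783, 3.22 and 1.00 CPM at 50 µM. Glyma.16G210800, of 4711 bp and described above, is its neighbour. In both neighbours every OX3 library lay below every W library.

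Another 28 members had an absolute log2 fold change over 1 although their libraries overlapped, which brought the members past that size to 52, or 23.1%, against 5.93% of all tested genes. They included Glyma.16G180300, whose OX3 libraries reached from 8.28 to 108 CPM and whose W libraries lay between 5.58 and 12.5 CPM. Glyma.16G174700, with a log2 fold change of 3.01 (SE 0.65), was at 0.29 to 4.34 CPM in OX3 and at no more than 0.351 CPM in W. These 2 genes were picked after their values were seen.

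The longest run of neighbouring members with an absolute log2 fold change over 1 in one direction had 6 genes, from Glyma.16G212100 to Glyma.16G212600, all lower in OX3. Elsewhere in the genome 19 runs of 3 or more were found, the longest of 10. Log2 fold changes in this run lay between -2.86 and -1.21. Glyma.16G212400 was at 313, 1032 and 740 CPM in the W controls and 142, 376 and 83.2 CPM in the OX3 controls. At 50 µM it was at 432, 500 and 636 CPM in W and 107, 205 and 243 CPM in OX3, so that its materials parted at 50 µM and overlapped at 5 µM. Glyma.16G212600 showed the same overlap at 5 µM, through W control replicate 2 at 22.1 CPM against 84.3 and 46.2 CPM in the other W controls. Its OX3 libraries lay between 14.1 and 24.4 CPM. The run was picked after its values were seen.

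**Figure D3:**
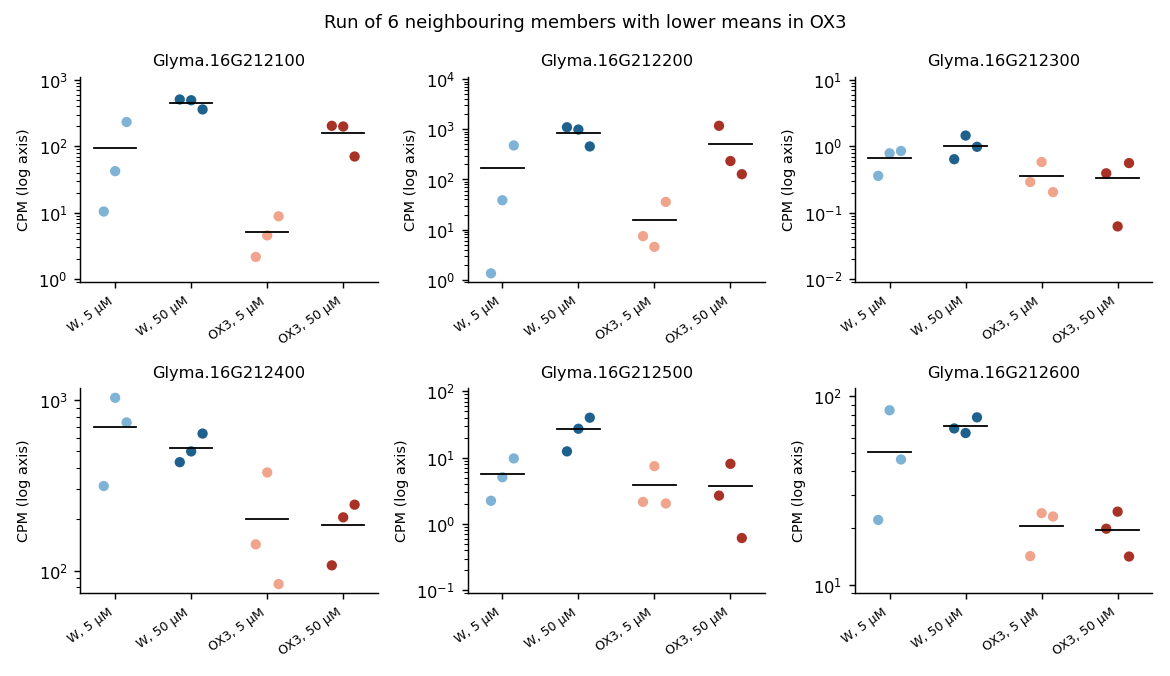
CPM (y axis, log scale) of the 6 neighbouring members from Glyma.16G212100 to Glyma.16G212600 in every library of the 4 groups (x axis), with the group mean as a line. Means of OX3 lie below those of W at the same concentration in each panel, and at 5 µM W control replicate 2 is the lowest W library in all 6.

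The contrast of OX3 and W can be set side by side at 5 and 50 µM, which share no library, although both entered the choice of the stretch. Over the 225 members the log2 fold changes correlated across genes with r = 0.793 (rho = 0.629), and 167 members, or 74.2%, had the same sign at both concentrations. Over all tested genes outside the stretch r was 0.145 and 55.4% had the same sign. Since the stretch was selected on this contrast, nothing is read from the closer likeness of the concentrations inside it. Genes are not independent replicates, and controls with the same replicate number deviated together. The counts past an adjusted p of 0.05 in edgeR's fit are again a description from which nothing is read. At 5 µM there were 3 members, beside 0.0126% of tested genes (0.00314% higher and 0.00942% lower). At 50 µM there were 2 members, beside 0.0157% of tested genes (0.00942% higher and 0.00628% lower). With the replicate number as a block both counts were 0, beside 0.0% of all tested genes. Without W control replicate 2 the count at 5 µM was 13, beside 0.31% of all tested genes. It was 0 without W control replicate 3 or 4, or without any one OX3 control. It was also 0 without W replicate 1 or 2 or OX3 replicate 4 at 50 µM, and 0.0% of all tested genes passed in each of these fits. The count at 50 µM was 0 without W replicate 1 or 2 at 50 µM. It was 1 without W control replicate 3 or 4, OX3 control replicate 2 or any one OX3 library at 50 µM. At most 0.00612% of all tested genes passed in these fits.

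**Figure D4:**
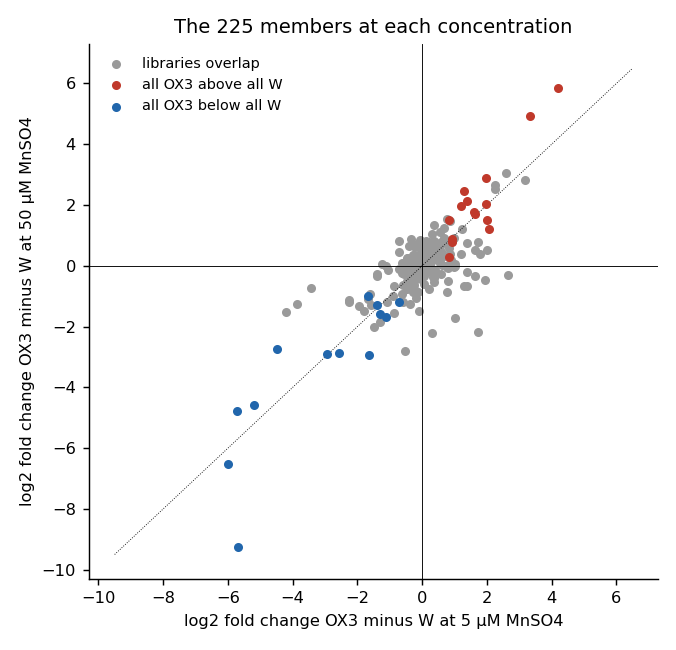
Log2 fold changes of OX3 minus W at 5 µM (x axis) and 50 µM MnSO4 (y axis) for the 225 members, with members whose libraries separate by material in red (higher in OX3) and blue (lower), and a dotted line of equality. The lowest point is Glyma.16G161100, whose fitted value at 50 µM depends on how 0 reads are handled.

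What the separated members shared beyond the choice itself was limited. Their gene lengths had a median of 2408 bp, against 1812 bp in the other 197 members. Per length they were fainter, with a median of 2.1 FPKM against 4.42 FPKM. Over all tested genes the medians were 1884 bp and 4.58 FPKM. The most abundant members were not among them. Glyma.16G204600, the most abundant by CPM, ranged from 161 to 3239 CPM with a mean of 558 FPKM, and its materials overlapped. Of the 8 most abundant members by CPM none separated by material over both concentrations together, where 12.4% of all members did. The remaining 7 are Glyma.16G164200, Glyma.16G212400, Glyma.16G212200, Glyma.16G212900, Glyma.16G170100, Glyma.16G212100 and Glyma.16G163200. In Glyma.16G212100 every OX3 library lay below every W library at each concentration, and the materials overlapped only across concentrations. With so few genes, nothing is read from their lack of separation. Summed over the members, the stretch gave 5014 ± 570 CPM in OX3 and 6214 ± 1540 CPM in W at 5 µM, and 7574 ± 2050 and 8074 ± 165 CPM at 50 µM (SD, n = 3), and the libraries of the materials overlapped at each concentration. Between 220 and 225 members had at least 1 read in a library.

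Tested genes just outside the ends overlapped between materials, a description only, since the stretch was selected on this contrast. Glyma.16G159100 and Glyma.16G159200, before the first member, had log2 fold changes of 0.26 (SE 0.19) and 0.24 (SE 0.39). Glyma.16G214800 and Glyma.16G214900, after the last, had -0.18 (SE 0.37) and 0.06 (SE 0.24). At the CPM minimum, Glyma.16G214200 and Glyma.16G199800 were just inside with 0.513 and 0.526 CPM of the raw total. Glyma.16G197200 and Glyma.16G204800 fell just outside with 0.499 and 0.483 CPM. All 225 members passed the filter on low counts of the test, and a gene near 0 in one material passed it through the other.

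The response to Mn inside the stretch was tested over both materials, in each material, and as an interaction. Over both materials the members past an adjusted p of 0.05 by edgeR numbered 5, of which 4 were higher at 50 µM and 1 was lower. This is 2.22% of the members, against 2.32% of all tested genes (1.27% higher and 1.05% lower), so the share was near the background. At an unadjusted p under 0.05 there were 58 members, or 25.8%, against 24.9% of all tested genes. In 5 members, or 2.22%, the 6 libraries at 50 µM did not overlap the 6 at 5 µM, against 2.08% of all tested genes. The median log2 fold change to Mn was 0.04 in the members and -0.04 over all tested genes. None of the 28 members that separated by material was among the 5, and their smallest adjusted p for Mn in edgeR's test was 0.0905. Separation by material was judged over both concentrations together, so a large response to Mn can itself make the materials overlap. Glyma.16G212100, among the 5, parted by material at each concentration but overlapped over both. Nothing is therefore read from the absence of the 28 among the 5.

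Glyma.16G171600 rose from 0.403, 0.855 and 1.70 CPM in W at 5 µM to 1.86, 2.76 and 3.01 CPM at 50 µM. In OX3 it rose from 0.331, 0.627 and 0.815 CPM to 6.13, 4.28 and 3.01 CPM. All 6 libraries at 50 µM lay above all 6 at 5 µM, by a log2 fold change of 2.15 (SE 0.38). The edgeR adjusted p was 0.0436. Glyma.16G169800, a gene of 528 bp, rose by less but as evenly. It went from 12.4, 11.8 and 14.1 to 18.4, 19.8 and 20.8 CPM in W and from 15.9, 13.8 and 15.2 to 20.6, 19.2 and 21.1 CPM in OX3. Its log2 fold change was 0.53 (SE 0.11), for an edgeR adjusted p of 0.0436, and again the concentrations did not overlap.

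Glyma.16G212100, the first gene of the run described above, reached 507, 493 and 359 CPM in W at 50 µM from 10.4, 42.2 and 232 CPM at 5 µM. OX3 went from 2.15, 4.54 and 8.82 CPM to 203, 198 and 70 CPM. Each material separated by concentration, but W control replicate 4 lay above all 3 OX3 libraries at 50 µM. The log2 fold change was 3.59 (SE 0.67, edgeR adjusted p 0.0436), and it was 4.52 without W control replicate 4. Its neighbour Glyma.16G212200 ranged from 1.34 to 477 CPM in W and from 4.54 to 35.7 CPM in OX3 at 5 µM, and from 127 to 1178 CPM at 50 µM. Its edgeR adjusted p was 0.0816, so it was not called.

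Glyma.16G206200 had 0, 0 and 0.849 CPM in W and 0, 0 and 0.255 CPM in OX3 at 5 µM. At 50 µM it stood at 11.3, 1.31 and 27.4 CPM in W and at 10.1, 8.55 and 0.0558 CPM in OX3, so OX3 replicate 4 lay with the controls. Its log2 fold change of 5.89 (SE 1.28, edgeR adjusted p 0.0436) was 8.54 without W control replicate 4. Glyma.16G189500 fell from 35.9, 43.5 and 15.1 to 11.6, 6.38 and 4.98 CPM in W. In OX3 its libraries were at 35.9, 49 and 17.5 CPM at 5 µM and 7.05, 14 and 19.5 CPM at 50 µM, where replicate 4 of both concentrations overlapped. Its log2 fold change was -1.68 (SE 0.37), for an edgeR adjusted p of 0.0438.

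Limma-voom called 2 of these 5 members and no other, beside 0.867% of all tested genes. DESeq2 called 27, among them the 5, beside 13.0% of all tested genes. All 5 calls ended without any one of 9 of the libraries, where at most 0.0093% of all tested genes passed. Without W control replicate 4, OX3 control replicate 4 or OX3 replicate 4 at 50 µM, the members past the threshold numbered 15, 13 and 11. The same 5 were among them each time, and 5.64%, 5.34% and 5.56% of all tested genes passed. The next members by p did not pass. Glyma.16G206900 (log2 fold change -1.17), Glyma.16G168200 (-1.05), Glyma.16G213400 (0.65), Glyma.16G200100 (-1.32) and Glyma.16G182400 (-1.55) had adjusted p-values from 0.051 to 0.0663 in edgeR's test.

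**Figure D5:**
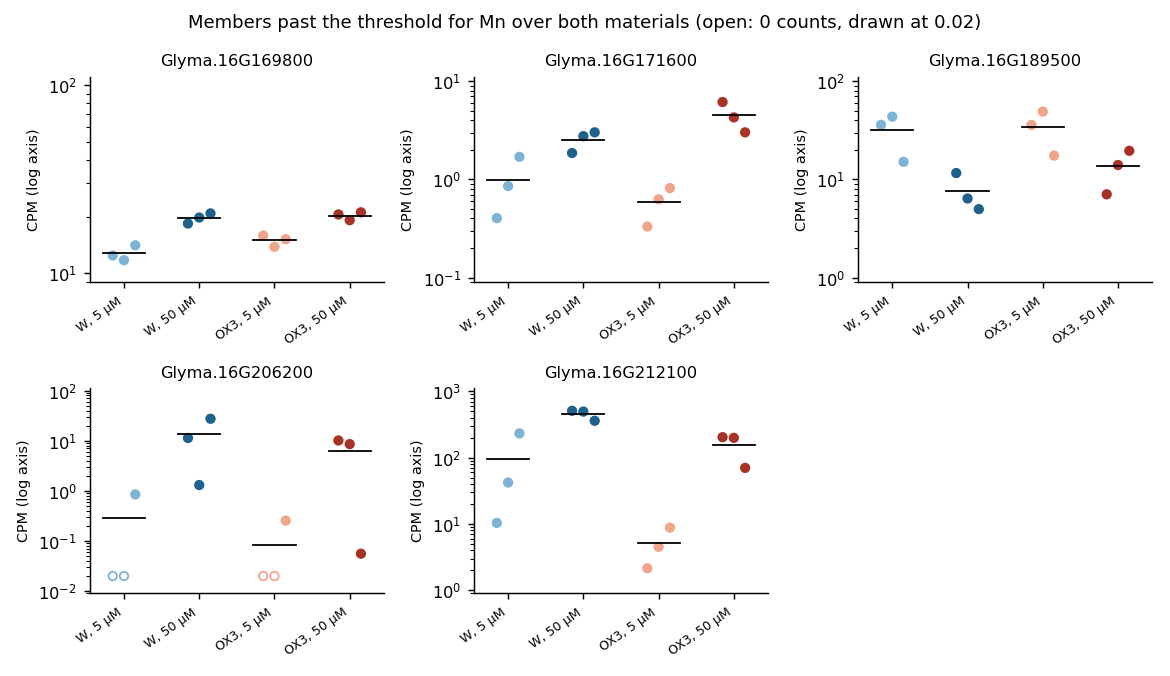
CPM (y axis, log scale) of the 5 members past the threshold for Mn over both materials, in every library of the 4 groups (x axis), with the group mean as a line and libraries with 0 reads as open circles. Glyma.16G169800 and Glyma.16G171600 have all 6 libraries at 50 µM above all 6 at 5 µM, and in the other 3 the concentrations overlap.

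Within W alone 0 members passed for Mn in edgeR's test, where 0.00314% of tested genes did. At an unadjusted p under 0.05 there were 42 members, or 18.7%, against 18.6% of tested genes. DESeq2 called 8 members, beside 5.08% of tested genes, and limma-voom 0, beside 0.00314%. Within OX3 alone the count in edgeR was also 0, where 0.0% of tested genes passed. There 39 members, or 17.3%, had an unadjusted p under 0.05, against 15% of tested genes. In OX3 DESeq2 called 7 members, beside 3.44% of tested genes, and limma-voom 0, beside 0.0%. The log2 responses to Mn of W and of OX3 correlated across the members with r = 0.60, and with r = 0.457 over the tested genes outside the stretch. In the 100 tested genes just before the stretch r was 0.641, above that of the members, and in the 48 after it 0.462. Both responses come from separate libraries, but same-numbered libraries of W and OX3 deviated together at each concentration, and the part of this in r was not tested.

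Whether the response to Mn differed between materials was tested as the interaction, where 0 members passed in edgeR's test against 0.00314% of tested genes. DESeq2 and limma-voom also called 0, beside 0.226% and 0.00314% of tested genes. At an unadjusted p under 0.05 there were 14 members, or 6.22%, against 7.55% of tested genes. The smallest p of a member, 0.0129 before and 0.648 after adjustment in edgeR's test, belonged to Glyma.16G189100. It was at 0.358, 0.499 and 0.392 CPM in the W controls and 0.174, 1.01 and 3.08 CPM in W at 50 µM, whereas OX3 went from 2.03, 2.70 and 3.16 CPM to 1.24, 1.24 and 0.949 CPM. Next came Glyma.16G211400, with a log2 response of 1.11 (SE 0.40) in OX3 minus that in W, and Glyma.16G211800, with -3.90 (SE 1.45), both with an edgeR adjusted p of 0.648. No member had libraries that separated by concentration in opposite directions in the materials, while 11 separated in the same direction in both. The share of all tested genes that did either was not counted, so nothing is read from these counts.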

How the data were processed

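The authors deposited read counts per gene and FPKM for the same 12 root libraries. Tools listed in the submitters' processing notes are HTSeq 0.6.0, HISAT2 2.1.0, TopHat2, Bowtie2 2.2.3 and CASAVA, with no role given. Strand and multiple mapping settings are not given in the sources used here. Gene lengths were recovered from the deposited FPKM, counts and column totals, and came out as whole numbers within 8.7e-11.

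Counts were tested with edgeR 4.0.16 (R 4.3.3) after filterByExpr, which left 31841 genes, and TMM scaling with factors from 0.859 to 1.25. A single quasi-likelihood model held every library, each group having its own coefficient, and p-values were adjusted by Benjamini-Hochberg over all genes tested. Standard errors are the absolute log2 fold change over the root of the quasi-likelihood F. The procedure was also run on simulated counts, drawn independently for each library and so without deviations shared by same-numbered libraries. No result given here rests on that run. Members were chosen on CPM of raw totals. The members, lists and comparisons were chosen with earlier results of these data known. Planned lists by product name could not be applied, since 0 identifiers matched the reference table.

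Genes were named if on/off, among the 20 largest differences between materials at 2 CPM or more without overlap, among the 10 smallest p for Mn, past a threshold for Mn, among the 3 smallest p for the interaction, among the 8 most abundant, or at a boundary. The 6 remaining genes without overlap, and any said to be picked later, are outside this rule. A group at 0 reads was given a floor of 3 reads over the group.

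Same-numbered libraries of OX3 and W at 5 µM deviated together from their group means, with correlations across genes of 0.334, 0.473 and 0.311 for replicates 2, 3 and 4. These libraries were taken as possible pairs on the evidence of the data, not of the labels. Alternatives used DESeq2 1.42.0 and limma 3.58.1, the latter also on log2-transformed FPKM after adding 1 or 0.1. The Python packages were scipy 1.17.1, numpy 2.4.6, matplotlib 3.10.9 and pandas 2.3.3.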

Additional observations from a re-analysis of the deposited data

How the results depend on the processing

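Percentages in brackets are shares of all genes tested in the same fit. The stretch was selected on OX3 against W, so counts in that contrast are a description from which nothing is read. Between OX3 and W over both concentrations, members past the threshold numbered 16 (0.148%), and 42 in DESeq2 (1.9%). They numbered 5 with a replicate block (0.0345%) and 12 with one within treatment (0.386%). When any one library was left out they numbered 10 to 29 (0.0612% to 1.79%). At 5 µM the 3 (0.0126%) became 24 in DESeq2 (0.735%), 6 on log2(FPKM + 0.1) (0.0314%) and 0 in limma-voom (0.0%). They became 0 with a replicate block or one within treatment (0.0% each), and 0 to 13 without one library (0.0% to 0.31%). At 50 µM the 2 (0.0157%) became 22 in DESeq2 (0.754%) and 0 in limma-voom (0.0%). On log2 FPKM they became 6 with a pseudocount of 0.1 (0.0785%) and 5 with 1 (0.0628%). With either block they became 0 (0.0%), and without one library 0 to 3 (0.0% to 0.0186%). For Mn over both materials the 5 (2.32%) became 27 in DESeq2 (13.0%), 2 in limma-voom (0.867%) and 0 with a replicate block (0.0%). On log2 FPKM they became 8 with either pseudocount, 3 of them among the 5 (3.12% at 0.1 and 2.71% at 1). Without one library they numbered 0 to 15 (0.0% to 5.64%). Replicate numbers were not taken as pairing the Mn groups, since the deviations of same-numbered libraries at 5 and 50 µM correlated at -0.228, 0.00876 and -0.0533 in OX3 (replicates 2, 3 and 4) and at -0.0149 and 0.274 in W (replicates 2 and 3). DESeq2 called 8 members for Mn in W (5.08%) and 7 in OX3 (3.44%), against 0 in edgeR. No other alternative, library left out or block called a member in either, and none called one for the interaction.

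Separated members numbered 28, between 20 and 30 under the other scaling and member minimums, and 28 to 40 without one library. With raw totals, 24 of the 28 still separated. On/off members numbered 6, and 6 to 8 without one library. At a limit of 0.2 CPM there were 2, of which 1 was among the 6, and at 1 CPM there were 6, of which 4 were among them. The median absolute log2 fold change lay between 0.42 and 0.53 when libraries were left out, and setting the 1 gene at 0 reads to its bound kept it at 0.43. With a member minimum of 2 CPM it was 0.38, with 0.1 CPM 0.48, and on raw totals 0.51. Raw totals would move every log2 fold change of OX3 minus W by 0.161 and that of Mn by -0.15. The 35 single-gene comparisons of named members kept their direction under every alternative, though differences of the faint genes shrank on log2(FPKM + 1). A replicate block within treatment cannot give the Mn comparisons, which were not run with it. The cause of these changes was not tested. Ratios of genes near 0 are limited by depth, where 3 reads amount to 0.155 to 0.198 CPM by library.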
